A study of Mus musculus with 2 samples.

Results

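The cells described here are *Pou1f1* precursors without abundant hormone, taken from 2 single-cell libraries of SOX9iresGFP+ve cells of the mouse pituitary at postnatal day 3. *Pou1f1* encodes the POU homeodomain factor that somatotrophs, lactotrophs and thyrotrophs need in order to form. The members were chosen by their own transcript counts, so the levels of the genes used are a description and not a result. A barcode was a member when it had at least 2 *Pou1f1* UMIs (unique molecular identifiers, each standing for 1 captured transcript), fewer than 10 *Prl* UMIs, *Gh* below 1% of its UMIs, *Cga* below 0.2%, *Pomc* below 2% and at most 2 UMIs of *Col1a1* and *Col3a1* together. Of the 13613 barcodes with at least 1000 genes and no more than 10% mitochondrial UMIs, 765 were members, 536 of 8009 from males and 229 of 5604 from females. The name follows this rule. The data are from a single time point and do not show what these cells become.

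Each library was made from 3 pooled pituitaries of 1 sex, all carrying the Sox9iresGFP/+ allele, in which GFP is translated from the *Sox9* transcript. GFP marks stem cells and, because the protein outlasts SOX9, their immediate progeny. GFP-negative cells were removed by the sort, and no unsorted library is among the samples. With 1 library a sex there is no replicate error and no test was made. Sex, animals, sort and library preparation cannot be told apart. A level is the number of UMIs of a gene in all cells of 1 class and library, divided by the UMIs of that class and scaled to a fixed total (CPM, counts-per-million), with an exact Poisson 95% interval that covers counting error only. Where a pair of values is given, the male library comes first.

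Before the filter there were 10569 male and 5796 female barcodes, of which 2513 and 174 had fewer than 1000 genes and a further 47 and 18 exceeded the mitochondrial limit. The median member had 13039.5 and 12077 UMIs. Of 19 barcode sequences found in both libraries, 15 were kept in both and none was a member in both. Among the barcodes with the highest scores of Scrublet, a doublet caller, were 64 male members (11.9%) and 17 female members (7.42%), against 6.41% and 4.48% of all barcodes kept. They were not removed, since the methods name no doublet step, and counts without them are in the closing section.

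POU1F1 acts on the promoters of *Gh*, *Prl* and *Tshb* and on its own gene. It appears in progenitors that have left the stem cell state, before any of these hormones is made in quantity, and its lineage then divides into cells making growth hormone, prolactin or thyrotropin. Notch signalling through HES factors holds progenitors back, while proneural bHLH factors such as NEUROD4 accompany differentiation. FOXL2 and ISL1 belong to the gonadotroph and thyrotroph programmes.

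The members were set beside 2 classes. The first, here *Smoc2*/*Pou3f4* cells, had at least 2 *Smoc2* UMIs and 1 *Pou3f4* UMI, genes that mark differentiating progeny of the stem cells, and held 492 and 409 cells. The second, here hormone-rich *Pou1f1* cells, had at least 1 *Pou1f1* UMI with 10 or more *Prl* UMIs or *Gh* at 1% or more, and held 138 and 37 cells. The rule for *Smoc2*/*Pou3f4* cells was also met by 19 male and 7 female members, which were counted as members alone.

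To show the letters of the POU1F1 recognition sequence at the gene that defines the members, the windows from 250 bases before to 50 bases after the annotated start of *Pou1f1* and of *Prl*, a hormone gene of the same lineage, are given with that of *Rxrg*, which led the members over *Smoc2*/*Pou3f4* cells. The windows are from RefSeq on GRCm38.p6, and capitals mark each match to TATNCAT, a short form of the POU1F1 recognition sequence, on either strand.
Pou1f1 promoter: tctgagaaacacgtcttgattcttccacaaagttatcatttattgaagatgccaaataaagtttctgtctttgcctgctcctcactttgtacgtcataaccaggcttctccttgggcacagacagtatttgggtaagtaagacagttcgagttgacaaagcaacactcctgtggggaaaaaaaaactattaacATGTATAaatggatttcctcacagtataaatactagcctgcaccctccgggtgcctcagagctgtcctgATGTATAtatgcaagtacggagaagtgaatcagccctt
Prl promoter: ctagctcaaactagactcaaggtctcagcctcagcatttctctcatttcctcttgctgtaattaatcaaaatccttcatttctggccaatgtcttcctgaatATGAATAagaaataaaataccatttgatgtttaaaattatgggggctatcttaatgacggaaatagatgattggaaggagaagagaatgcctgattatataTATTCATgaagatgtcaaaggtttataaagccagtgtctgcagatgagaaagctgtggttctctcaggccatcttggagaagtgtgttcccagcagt
Rxrg promoter: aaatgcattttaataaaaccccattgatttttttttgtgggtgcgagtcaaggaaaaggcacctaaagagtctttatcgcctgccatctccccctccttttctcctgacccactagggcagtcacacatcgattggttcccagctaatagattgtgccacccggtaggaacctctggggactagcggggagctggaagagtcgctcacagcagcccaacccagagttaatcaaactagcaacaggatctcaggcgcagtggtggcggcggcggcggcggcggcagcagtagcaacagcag
The *Pou1f1* window lies on the plus strand at chr16:65520262-65520561, with matches that begin 57 bases before and 12 bases after the start. The *Prl* window lies on the plus strand at chr13:27057320-27057619, with matches that begin 148 and 47 bases before the start. These letters were not in the *Rxrg* window on the plus strand at chr1:167598112-167598411, nor in the windows of *Neurod4*, *Hepacam2*, the hormone gene *Tshb* and a second annotated start of *Pou1f1*. Of 27025 symbols with a promoter in this table, 2747 (10.2%) held a match in at least 1 window. Among the genes set against *Smoc2*/*Pou3f4* cells, 106 of 2555 with a window (4.15%) held one, as did 7 of the 90 with a window that were higher in the members (7.78%) and 2 of the 69 that were lower (2.90%). Against hormone-rich cells, 106 of 2468 (4.29%) held one, as did 0 of the 22 that were higher in the members and 2 of the 48 that were lower (4.17%). A match is not measured binding.

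Members made up 6.69% (6.15–7.26, exact Clopper-Pearson interval) of the male and 4.09% (3.58–4.64) of the female barcodes kept, a ratio of 1.64 (1.40–1.92). The barcodes kept also differed in depth, with medians of 11108 and 9892 UMIs. Among the 6780 and 5424 barcodes with at least 5000 UMIs the shares were 7.40% and 4.15%, and when these were thinned to 5000 UMIs before the rule was applied they were 6.61% and 3.47%. The part of depth in the difference was not tested.

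The 2-UMI minimum cut through a continuous range of *Pou1f1* counts, as the histogram of *Pou1f1* UMIs shows. The median member had 13 *Pou1f1* UMIs among males (range 2–69) and 10 among females (2–50). At the limit, 46 and 17 members had exactly 2, and 190 and 71 barcodes that met every other criterion had 1. *Rxrg* was at 17 and 34.5 CPM in members with 2 *Pou1f1* UMIs and at 4.85 and 7.34 CPM in the barcodes with 1, whereas it reached 85.8 and 159.6 CPM with 3 to 5 UMIs. The *Rxrg* levels rest on only 8 and 7 *Rxrg* UMIs at 2 and on 13 and 7 at 1. The stem cell gene *Sox2* went the other way, with 506 and 496 CPM at 1 UMI and 406 and 256 CPM at 2. It was at 227 and 98.2 CPM with 3 to 5 UMIs and at 148 and 273 CPM with 6 to 10. Among females the fall was thus not steady.
The limits on *Gh* and *Prl* fell in gaps. No member had more than 0.703% and 0.229% *Gh*, and the lowest share outside was 3.79% and 3.78%. For *Prl* the highest members had 6 and 7 UMIs and the nearest barcodes outside 10 and 25. *Cga* had no gap, with 1980 and 1839 CPM at the edge inside and 2043 and 2111 CPM just outside. Its limit was exceeded by 116 of the 787 male and 19 of the 284 female barcodes with at least 2 *Pou1f1* UMIs.

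**Figure D1:**
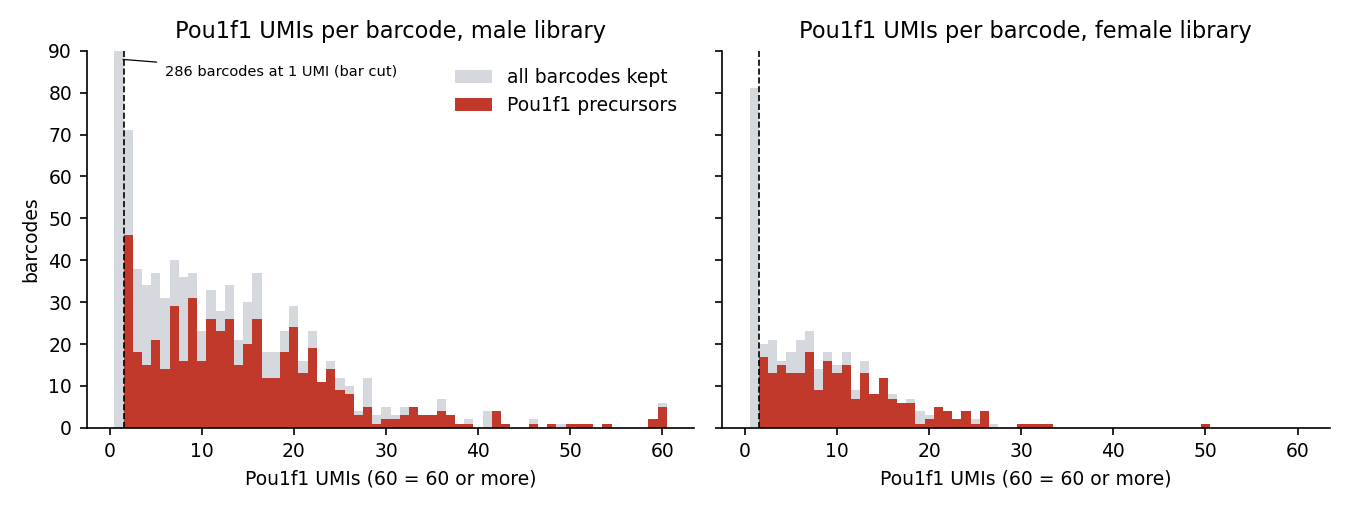
Number of barcodes (vertical axis) with each number of *Pou1f1* UMIs (horizontal axis, 60 standing for 60 or more), grey for all barcodes kept with at least 1 *Pou1f1* UMI and red for the *Pou1f1* precursors, in the male and female libraries, with the 2-UMI limit dashed. The counts run on without a gap from the 46 and 17 members at 2 UMIs past medians of 13 and 10; the grey bar of 286 male barcodes at 1 UMI is cut at the top of the axis.

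Levels of 4 markers of the lineage that the rule did not use are described next. They were chosen with earlier results of these data known, so they are not an independent check of the label. Their levels in hormone-rich cells are given further on. *Pou1f1* lies on chromosome 16 from 65520511 to 65535005 of mm10 (ENSMUSG00000004842) and by construction was high, at 997 (976–1019) and 826 (794–859.6) CPM. *Neurod4*, a proneural bHLH factor on chromosome 10 (130268152 to 130280240), had 83.2 (77–89.7) and 126 (113–139) CPM and exceeded the 14 and 18.7 CPM of *Smoc2*/*Pou3f4* cells by 5.95-fold (4.87–7.32) and 6.72-fold (5.42–8.39).
*Rxrg* encodes the retinoid X receptor gamma, a partner of thyroid hormone and retinoic acid receptors, and lies on chromosome 1 (167598384 to 167639623). Its level was 127 (119.7–135) and 126 (114–139) CPM, whereas in *Smoc2*/*Pou3f4* cells the males gave 8 UMIs and the females none. This is a difference of 129.8-fold (65.6–301) and at least 247-fold, the bound being set by 3 UMIs over the class. After thinning to 5000 UMIs a *Rxrg* UMI was present in 42.2% (37.9–46.7) and 35.1% (28.9–41.7) of the members (unthinned 62.3% and 55.9%). In cells with at least 20 *Col1a1* and *Col3a1* UMIs, which should lack the gene and had median depths of 9037 and 8407 UMIs, it was present in 0.792% and 0%.
*Peg10*, an imprinted gene of retrotransposon origin on chromosome 6 (4747306 to 4760517), had 179.9 (171–189) and 125 (113–138) CPM, above the 11.4 and 7.48 CPM of *Smoc2*/*Pou3f4* cells. *Hepacam2*, an immunoglobulin-like adhesion gene on chromosome 6 (3457096 to 3498298), had 54.3 (49.3–59.6) and 33 (26.8–40.2) CPM beside 0.981 and 0.17 CPM. Its female level missed the 50 CPM needed for the counts of genes given further on. The 4 markers that the rule did not use were present in both libraries and low in *Smoc2*/*Pou3f4* cells, but they were not found in every member: 202 and 101 members had no *Rxrg* UMI, and 245 and 94 had no *Neurod4* UMI.

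Markers of mesenchymal, endothelial, immune, red blood and posterior lobe cells were low in the members. The rule itself limits collagens and *Pomc*, so mesenchymal and *Pomc* levels are not independent of it. Summed over whole lists, 12 mesenchymal genes were at 64.2 and 92.7 CPM, 8 endothelial genes at 6.79 and 8.67 CPM, 8 immune genes at 5.06 and 6.33 CPM, 5 red blood cell genes at 0.740 and 0.333 CPM, and 8 posterior lobe genes at 12.6 and 13.3 CPM. The mesenchymal sum in *Smoc2*/*Pou3f4* cells was 65.6 and 70.7 CPM. Lists of other endocrine cells had larger sums in the members. Gonadotroph markers were at 220 and 243 CPM, corticotroph and melanotroph markers at 327 and 207 CPM, and thyrotroph markers at 397 and 274 CPM. *Pomc*, the corticotroph and melanotroph hormone gene, was at 233 and 71 CPM in the members and 2284 and 109.8 CPM in *Smoc2*/*Pou3f4* cells, whose rule sets no limit on it. With the members' limits on *Cga*, *Pomc* and collagens put on *Smoc2*/*Pou3f4* cells too, 396 and 366 of those cells were left.

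Against *Smoc2*/*Pou3f4* cells, 3236 genes had at least 50 CPM in 1 of the 2 classes in each library and 100 UMIs in all. A gene was counted as higher or lower when its level differed by at least 2-fold in both libraries. Of these genes, 128 were higher in the members (3.96%) and 96 lower (2.97%), the rule's own genes included, and the median log2 ratio of all 3236 was 0.04 and 0.01. The higher genes included receptors and secretory genes of the POU1F1 lineage and several imprinted genes. The lower genes included factors that the gonadotroph and thyrotroph programmes share. The members' rule limits *Cga*, a hormone subunit gene of those programmes, and the rule for *Smoc2*/*Pou3f4* cells does not. Counts with the same limits on both classes are in the closing section. Most of the measured genes of the list for differentiating progeny were also lower.

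Among 23 factors of the POU1F1 lineage and its neighbours, 15 were measured, 5 of them higher and 3 lower. The higher ones were *Pou1f1*, *Neurod4*, *Rxrg*, *Peg10* and *Lhx3*, a LIM homeodomain factor of the whole anterior lobe. *Pou1f1* was used by the rule, and *Neurod4*, *Rxrg* and *Peg10* are markers chosen with earlier results of these data known. *Lhx3* alone was neither used by the rule nor a marker. *Lhx3* had 294 (283–307) and 323 (303–344) CPM, which is 2.63-fold (2.43–2.84) and 3.04-fold (2.75–3.37) the level of *Smoc2*/*Pou3f4* cells. *Pitx1*, *Insm1* and *Zbtb20* lay within 2-fold in both libraries, and so did *Six6*, at 779 and 867 CPM beside 422 and 520.4 CPM.
The lower factors included *Isl1* and *Foxl2*. *Isl1* had 60 (54.8–65.6) and 38.7 (32–46.4) CPM in the members and 506 and 407 CPM in *Smoc2*/*Pou3f4* cells, where it was 8.43-fold (7.67–9.28) and 10.5-fold (8.73–12.8) higher. *Foxl2* had 16.5 (13.9–19.6) and 14 (10.1–18.9) CPM beside 119 and 93.7 CPM. *Neurod1*, at 88.5 and 131 CPM beside 201 and 166 CPM, reached the 2-fold limit in males alone.

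**Figure D2:**
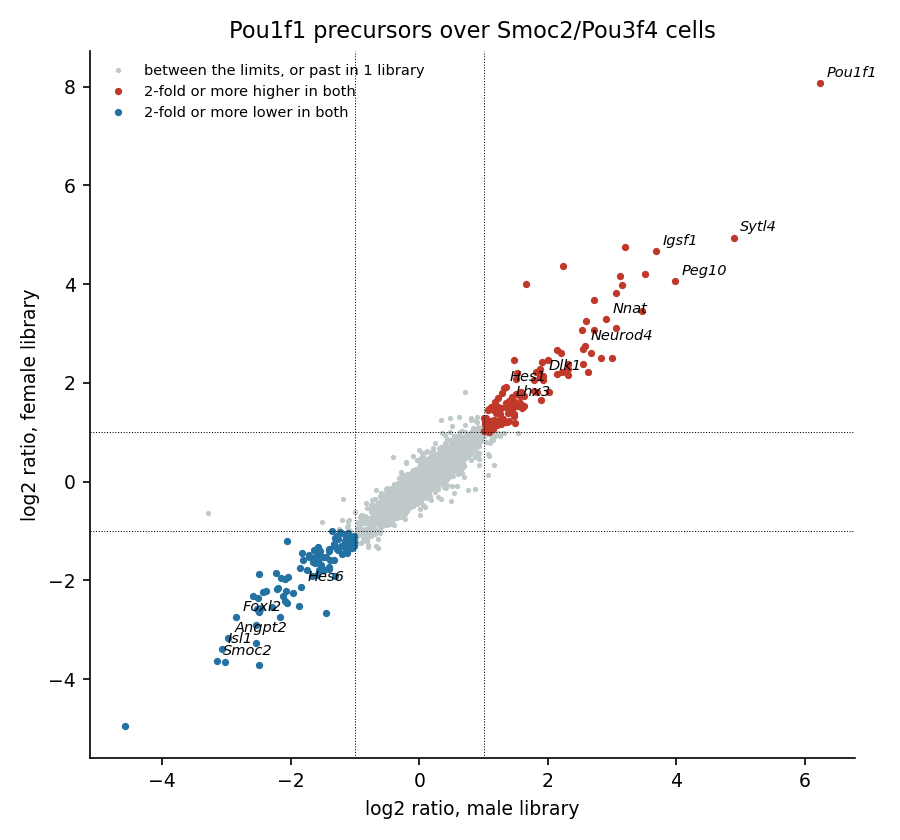
Each point is a gene with its log2 ratio of *Pou1f1* precursors over *Smoc2*/*Pou3f4* cells in the male (horizontal axis) and female library (vertical axis), red where it was higher and blue where it was lower by 2-fold or more in both, with dotted lines at 2-fold. The 128 higher genes include *Sytl4*, *Igsf1* and *Peg10* and the 96 lower genes include *Isl1*, *Foxl2* and *Hes6*; *Pou1f1* and *Smoc2* were used to choose the cells, and genes with no UMI in a class, such as *Rxrg* among females, are not drawn.

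Receptors that mature cells of the lineage carry were present in part. *Thrb*, the thyroid hormone receptor beta, was at 89.5 and 93.7 CPM beside 15.3 and 14.5 CPM in *Smoc2*/*Pou3f4* cells. *Igsf1*, a membrane glycoprotein whose loss causes central hypothyroidism, was at 107 and 112 CPM beside 8.34 and 4.42 CPM. These were the 2 measured at this level of the 16 receptor genes listed, and both were higher in the members. *Prlr*, the prolactin receptor, lay under 50 CPM, at 41.3 (37–46) and 48.3 (40.8–56.9) CPM, and exceeded *Smoc2*/*Pou3f4* cells by 33.7-fold (18.1–70.9) and at least 94.8-fold. *Trhr*, the receptor for thyrotropin-releasing hormone, was at 9.75 and 13.7 CPM beside 0.368 and 0 CPM.
*Ghrhr*, the receptor for growth hormone-releasing hormone, was near 0 in the members. It had 8 UMIs in 536 male members and none in 229 female members, whereas hormone-rich cells had 66.2 (56.8–76.8) and 139.5 (111–173) CPM. After thinning, 1 of 502 male members and 0 of 225 female members had a *Ghrhr* UMI, the latter allowing up to 1.33% of cells with a UMI at this depth, which is no limit on cells that express the gene. In hormone-rich cells 21.6% (14.7–29.8) and 50% (32.9–67.1) had one.

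Hormone transcripts were not absent from the members. *Gh* was at 136 and 124 CPM, beside 71.6 and 98.1 CPM in *Smoc2*/*Pou3f4* cells and 46.6 and 60.1 CPM in collagen-rich cells. After thinning a *Gh* UMI was present in 21.3% (17.8–25.2) and 22.2% (17–28.2) of the members (unthinned 37.3% and 33.2%) and in 15.4% (12.4–18.9) and 10.3% (6.92–14.5) of the collagen-rich cells, which should not make growth hormone and give the level of free RNA. The male intervals overlapped and the female intervals did not. *Prl* was at 7.65 and 7.67 CPM and *Tshb* at 14.2 and 27 CPM, with no *Tshb* UMI in 473 male and 194 female members.

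Secretory granule and exocytosis genes divided among themselves. Of 17 measured against *Smoc2*/*Pou3f4* cells, 6 were higher and 1, *Syt1*, was lower, with a list median log2 ratio of 0.43 and 0.60. The higher ones were *Sytl4*, *Chgb*, *Pcsk1n*, *Scg3*, *Rab3a* and *Nnat*. *Sytl4* encodes granuphilin, which docks dense-core granules at the membrane, and had 139 (131–147) and 105 (93.4–117) CPM beside 4.66 and 3.4 CPM. *Chgb*, a granin of the granule core, had 551 (534–567) and 363 (342–386) CPM beside 174 and 22.8 CPM, with the larger ratio in females. *Chga*, *Cpe* and *Scg5* did not reach 2-fold in both libraries.

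Several imprinted genes were higher in the members. Of 10 measured, 5 were higher and none lower, with list medians of 1.38 and 1.60 on the log2 scale beside the 0.04 and 0.01 of all genes. *Nnat*, a small membrane protein of the endoplasmic reticulum, had 24619 (24511–24727) and 19884 (19725–20044) CPM beside 3288 and 2029 CPM, a difference of 7.49-fold (7.39–7.58) and 9.8-fold (9.61–9.99). *Mest* was at 1211 and 1120.1 CPM beside 191 and 185 CPM, and *Dlk1*, a transmembrane protein related to Notch ligands, at 2021 and 2787 CPM beside 534 and 636 CPM. *Plagl1* and *Peg10*, the latter a marker given above, completed the group. *Cdkn1c*, *Meg3*, *Peg3*, *Ndn* and *Gnas* did not reach 2-fold in both libraries.

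Of 8 genes measured from the list for differentiating progeny, 7 were lower in the members, but *Smoc2* and *Pou3f4* are among the 7 and were used to choose the comparison cells. The other 5 were *Lef1*, *Gadd45g*, *Dll1*, *Mycl* and *Myb*. *Gadd45g*, a growth arrest gene, was at 308 and 269 CPM beside 895 and 708 CPM, and *Mycl*, a MYC family factor, at 61.5 and 39.3 CPM beside 357 and 294 CPM. *Lef1*, a transcription factor of the WNT pathway, had 55.4 (50.4–60.8) and 58.3 (50–67.6) CPM beside 147 and 151 CPM. In the WNT list 3 of 5 measured genes were lower, namely *Lef1*, *Nkd1* and *Lgr4*, and none was higher.
In the Notch list the ligand *Dll1* and *Hes6* were lower, whereas *Hes1*, a transcriptional effector of the pathway, and *Dlk1* were higher. *Hes6*, a HES family member found in differentiating cells, had 394 (380.3–408) and 254 (237–273) CPM beside 1403 and 1123 CPM. *Hes1* had 172 (163–181) and 361 (340.2–384) CPM beside 69.1 and 96.6 CPM. As whole classes, these HES genes thus differed from *Smoc2*/*Pou3f4* cells in opposite directions in both libraries. The *Hes1* level was not even among the members. It was 296 and 530 CPM in those with a *Sox2* UMI after thinning and 80.9 and 221 CPM in those without. Members among the highest Scrublet scores had 263 and 979 CPM, and the others 153 and 275 CPM. The part of doublets was not tested.
Of 9 stem cell genes measured, 3 were higher in the members (*Hes1*, *S100a1* and *Krt18*) and none was lower in both libraries. *Sox2* had 166 (157–175) and 182 (167–198) CPM beside 297 and 376 CPM and passed the 2-fold limit in females alone. *Sox9* was at 46 (41.5–50.9) and 64.7 (55.9–74.4) CPM beside 19.9 and 17.5 CPM. It was thus higher in the members by more than 2-fold in both libraries. Its male level missed the 50 CPM needed for the count. *Aldh1a2*, which makes retinoic acid, was at 135 and 147 CPM beside 95.3 and 67 CPM.
The remaining lists gave few differences. Of 10 immediate early genes measured, *Junb* alone was higher, at 1019 and 1262 CPM beside 363 and 415 CPM. Of 5 retinoid pathway genes, *Rxrg* and the retinol carrier gene *Rbp4* were higher, and of 9 adhesion genes *Ncam1* was higher and *Cldn7* lower. Of 7 cell cycle inhibitors *Gadd45g* alone was lower, and none of 3 ion channel genes or 2 S phase genes passed. All 4 gonadotroph genes measured had lower levels in the members, 3 of them by 2-fold in both libraries: *Isl1*, *Foxl2* and *Cartpt*. Of 7 thyrotroph genes listed, 3 were measured and all 3 were lower, with list medians of -2.84 and -2.74. *Isl1* and *Foxl2* are on that list too, as is *Cga*, which the rule limits in the members but not in *Smoc2*/*Pou3f4* cells. The gonadotroph and thyrotroph levels are thus not independent of the rule.

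Over all genes measured, the 10 with the largest lesser ratio over the 2 libraries were *Rxrg*, *Dbpht2*, *Sytl4*, *Peg10*, *Igsf1*, *Angpt1*, *5330416C01Rik*, *Mgll*, *5330417C22Rik* and *Serpinf1*, the rule's own genes aside. *Angpt1*, the TIE2 ligand angiopoietin 1, was at 74.2 and 79 CPM beside 6.5 and 4.25 CPM. Its relative *Angpt2* was among the 10 lowest, at 7.28 and 7.33 CPM beside 57.2 and 66.1 CPM, the opposite pattern. *Mgll*, the monoacylglycerol lipase, was at 87.1 and 91.7 CPM beside 9.45 and 3.4 CPM.
*Serpinf1*, which encodes the secreted factor PEDF, was at 56.4 and 104 CPM beside 6.5 and 5.78 CPM. The other genes lowest in the members were *Isl1*, *Grp*, *Foxl2*, *Col16a1*, *Mycl*, *Thsd7b*, *Tex14*, *Rbm24* and *Gch1*. *Grp*, gastrin-releasing peptide, was at 10.1 and 7.0 CPM beside 82.6 and 87.6 CPM, and the collagen gene *Col16a1* at 47.9 and 32.3 CPM beside 279.9 and 309 CPM.

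**Figure D3:**
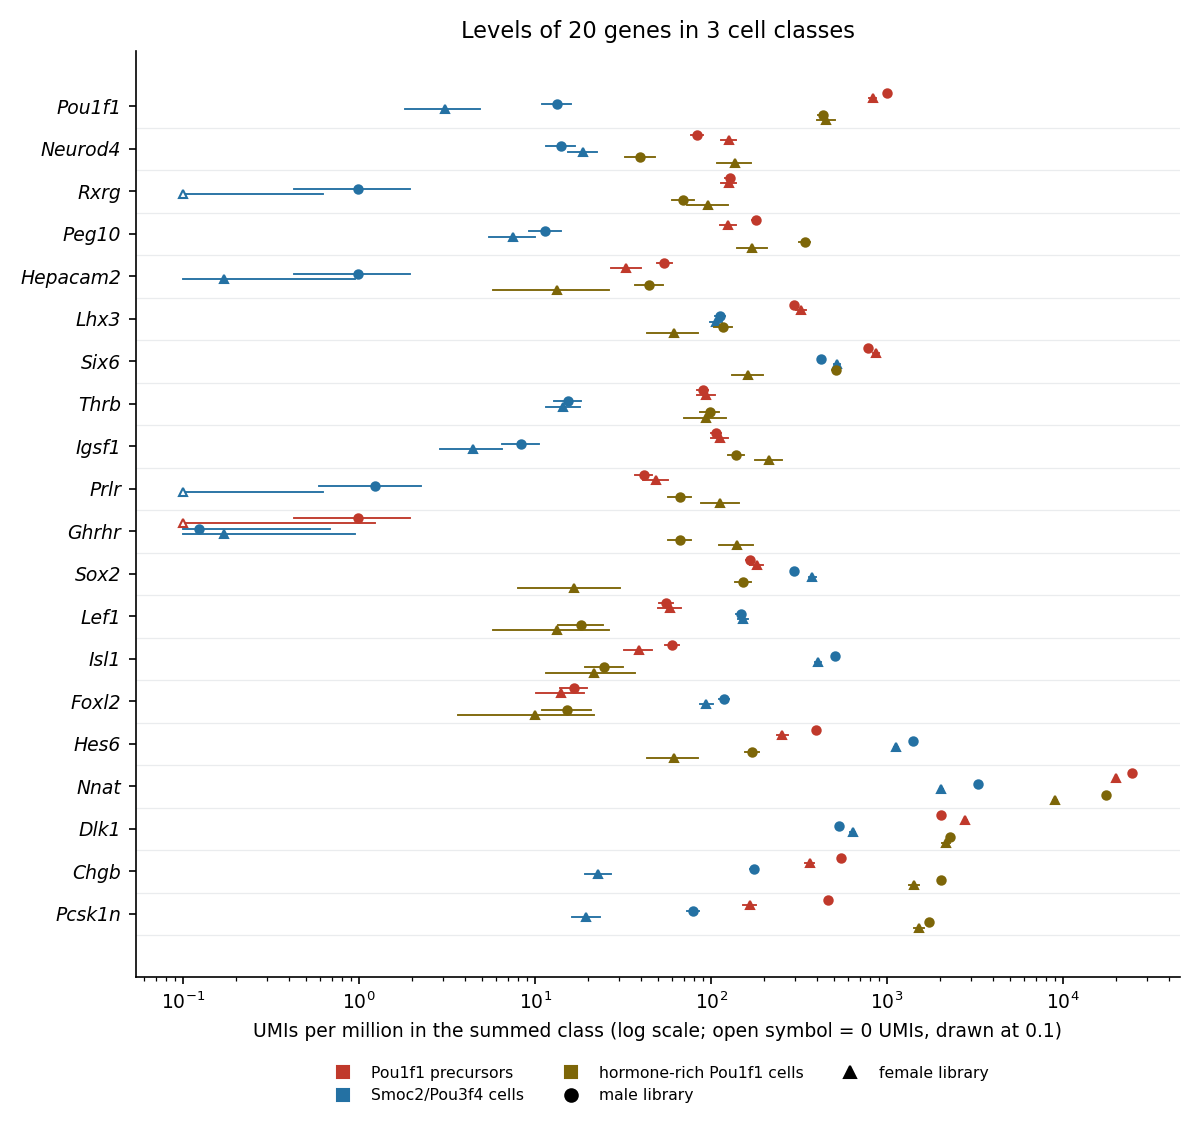
Level of 20 genes in CPM (horizontal log axis) in *Pou1f1* precursors (red), *Smoc2*/*Pou3f4* cells (blue) and hormone-rich *Pou1f1* cells (brown), circles for the male and triangles for the female library, with exact Poisson 95% intervals; open symbols stand for 0 UMIs and are drawn at 0.1. *Rxrg*, *Igsf1* and *Prlr* lie in the members nearer to the hormone-rich cells than to *Smoc2*/*Pou3f4* cells, *Ghrhr* lies with *Smoc2*/*Pou3f4* cells, and *Isl1*, *Foxl2* and *Hes6* lie below *Smoc2*/*Pou3f4* cells.

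Against hormone-rich *Pou1f1* cells, 3117 genes were measured, of which 30 were higher in the members (0.962%) and 56 lower (1.8%). *Gh* alone took 9.95% and 23.3% of the UMIs of hormone-rich cells, and the median log2 ratio of all measured genes was 0.16 and 0.32. With the 7 hormone genes taken out of the totals, these medians were -0.01 and -0.09, and 18 genes were higher and 85 lower of 3277. The CPM below keep all genes in the total, so that member levels read high by these medians. The hormone-rich males were 74 *Gh*-rich and 66 *Prl*-rich cells (2 cells both) and the females 31 and 6, and the part of this makeup in differences between the libraries was not tested.

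The genes lower in the members included many of the secretory pathway. Of 21 secretory genes measured, 9 were lower and none higher, with list medians of -0.94 and -1.41. *Resp18*, a granule protein, was at 3.58 and 1.67 CPM in the members and 179 and 302 CPM in hormone-rich cells. *Ptprn*, which encodes the granule membrane protein IA-2, was at 6.79 and 6.67 CPM beside 79.2 and 156 CPM. *Pcsk1n*, the proSAAS inhibitor of prohormone convertase, was at 460.1 and 165 CPM beside 1737 and 1526 CPM.
The other secretory genes lower were *Chga*, *Chgb*, *Pam*, *Syt4*, *Syt7* and *Rab3b*. *Sytl4*, *Cpe*, *Scg3*, *Scg5* and *Vamp2* lay within 2-fold in both libraries, *Sytl4* being at 75.4 and 108 CPM in hormone-rich cells. Some granule genes of the members were thus near the hormone-rich level and others far below it. Over all genes, *Ghrhr*, *Resp18* and *Ptprn* led the 10 lowest, followed by *Gpx3*, *Caly*, *Tmem130*, *Tesc*, *Cartpt*, *Nap1l5* and *Syt4*. *Cartpt* was at 174 and 267 CPM in *Gh*-rich cells. In the 64 and 6 cells that were *Prl*-rich alone it was at 27.6 and 11.6 CPM, and the members' ratio was 0.796 (0.538–1.21) and 2.12 (0.369–84.8). *Caly* and *Nap1l5* were lower in the members than in these *Prl*-rich cells too, in both libraries. *Resp18*, *Ptprn*, *Gpx3*, *Tmem130*, *Tesc* and *Syt4* were lower than in *Prl*-rich cells in males alone. The 6 female *Prl*-rich cells had no UMI of *Resp18* or *Ptprn*. For *Gpx3*, *Tmem130*, *Tesc* and *Syt4* their intervals included no difference. *Ghrhr* had no UMI in *Prl*-rich cells of either library. Among 13 imprinted genes, *Plagl1* and *Usp29* were lower and *Cdkn1c* was higher.

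The 10 genes highest over hormone-rich cells included *Gadd45b*, *Serpinf1*, *Pcdh9*, *Calml4*, *Cdkn1c*, *Lmo1*, *Hspb1*, *Lef1* and *Pex5l*. The first 2 were not higher than in the 6 female cells that were *Prl*-rich. There the members' ratio was 1.03 (0.671–1.68) for *Gadd45b* and 1.12 (0.56–2.61) for *Serpinf1*. Both exceeded female *Gh*-rich cells and male *Prl*-rich cells by more than 2-fold. *Cdkn1c* encodes the cell cycle inhibitor p57 and had 1091 (1068–1114) and 1424 (1382–1467) CPM in the members, 1120.1 and 1056 CPM in *Smoc2*/*Pou3f4* cells and 337 and 176 CPM in hormone-rich cells. Of 8 cell cycle inhibitors and growth arrest genes measured, 3 were higher (*Cdkn1c*, *Gadd45b* and *Gadd45g*) and none lower. For *Gadd45b* the limit among females given above applies. *Pcdh9*, a protocadherin, had 65.7 (60.2–71.5) and 96.7 (85.9–108) CPM in the members, 16.7 and 13.3 CPM in hormone-rich and 17.3 and 23.1 CPM in *Smoc2*/*Pou3f4* cells, and so was at its highest in the members of both libraries. *Lef1* stood between the classes, with a hormone-rich level of 18.3 and 13.3 CPM, although the 6 female cells that were *Prl*-rich gave an interval of 12.7–119 CPM that includes the members' level. *Hes6* was at 172 and 61.4 CPM in hormone-rich cells, but at 252 (223–284) and 279 (179–416) CPM in the 64 and 6 cells that were *Prl*-rich without being *Gh*-rich, where the female members' level lay within the interval.
*Lhx3* was the 1 lineage factor of 13 that was higher than in hormone-rich cells, by 2.52-fold (2.24–2.85) and 5.26-fold (3.79–7.51). This was so for *Gh*-rich cells, at 64.3 (52.2–78.2) and 17.4 (7.97–33.1) CPM, whereas *Prl*-rich cells had 191 (166–219) and 326 (217–471) CPM and did not differ from the members by 2-fold. Neither *Neurod4*, *Rxrg* nor *Peg10* differed by 2-fold in both libraries. Their hormone-rich levels were 39.6 and 136 CPM for *Neurod4*, 69.3 and 96.3 CPM for *Rxrg* and 339.6 and 171 CPM for *Peg10*.

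Hormone-rich cells were not uniform, and the members stood between their *Gh*-rich and *Prl*-rich cells for several genes. *Peg10* was at 28.6 (20.8–38.3) and 31 (17.7–50.3) CPM in the 74 and 31 *Gh*-rich cells and at 780.4 (729–835) and 1013 (811–1249) CPM in the 64 and 6 cells that were *Prl*-rich alone, with the members' 179.9 and 125 CPM between them. *Hepacam2* was at 4.54 (1.83–9.36) and 7.75 (2.11–19.8) CPM in *Gh*-rich and 101 (83.2–122) and 46.6 (12.7–119) CPM in *Prl*-rich cells, so that male members lay between them, whereas the female *Prl*-rich interval includes the members' level. *Nnat* was at 3774 and 4899 CPM and 37019 and 33264 CPM, and the members had 24619 and 19884 CPM.
*Chgb* was at 419 and 986 CPM in *Gh*-rich and 4330.1 and 4004 CPM in *Prl*-rich cells, so that the male members at 551 CPM were above the male *Gh*-rich cells. *Ghrhr* went the other way, with 113 and 163 CPM in *Gh*-rich cells and no UMI in the 64 and 6 *Prl*-rich cells. *Sox2* was at 223 and 19.4 CPM in *Gh*-rich cells, the male value lying above the members' own 166 CPM.

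The members differed among themselves along the range of *Pou1f1*. They were divided into 4 groups by their *Pou1f1* share of UMIs, with 134 male and 57 or 58 female cells in each. *Sox2* was at 283 (264–304) and 300.5 (266–339) CPM in the group with the lowest share and 81 (68–95.8) and 112 (88.6–139) CPM in that with the highest. *Neurod4* went in the opposite direction, from 45.7 and 78.2 CPM to 127 and 171 CPM, as did *Pcdh9*, from 27.6 and 36.9 CPM to 98.7 and 169 CPM. *Sox2* was thus lower and *Neurod4* and *Pcdh9* were higher where *Pou1f1* was higher, in both libraries.
*Rxrg* was lowest in the first group, at 72.6 and 93.8 CPM, and its intervals in the upper 3 groups overlapped in females. *Isl1* was at 115 (102–128) and 58.1 (43.4–76.2) CPM in the lowest and 28.4 (20.9–37.6) and 38.2 (25.2–55.6) CPM in the highest group, a difference beyond counting error in males alone. *Lef1* was at 48.3 (40.4–57.2) and 58.1 (43.4–76.2) CPM in the lowest and 71 (58.8–84.8) and 60.9 (44.1–82) CPM in the highest group, higher beyond counting error in males alone, and *Chgb* was highest in a middle group. The median depth was 15501 and 13013 UMIs in the lowest and 12030 and 11571 UMIs in the highest group. The highest Scrublet scores fell on 20.9% and 12.3% of the lowest group and on 1.49% and 1.72% of the highest, and the part of depth and doublets in these differences was not tested.

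**Figure D4:**
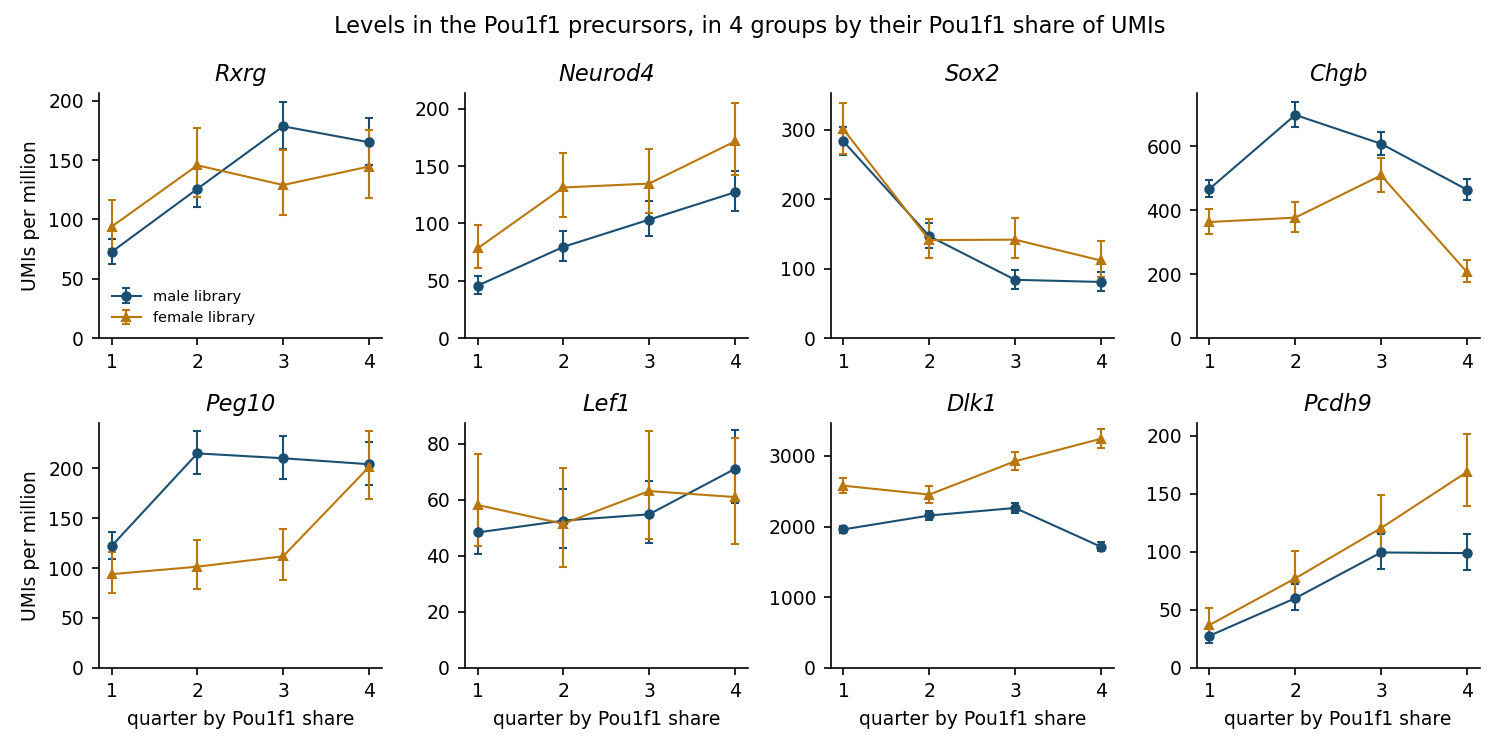
Level in CPM (vertical axes, from 0) of 8 genes in the *Pou1f1* precursors of the male (blue circles) and female library (orange triangles), in 4 groups from the lowest (1) to the highest (4) *Pou1f1* share, with exact Poisson 95% intervals. *Sox2* is lower and *Neurod4* and *Pcdh9* are higher in the fourth group than in the first in both libraries, and *Lef1* is higher in the fourth group in males alone.

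*Sox2* transcripts were found in part of the members. After thinning, 35.3% (31.1–39.6) and 40.9% (34.4–47.6) had a *Sox2* UMI (unthinned 47% and 54.1%), beside 68.9% and 77.2% of *Smoc2*/*Pou3f4* cells and 8.91% and 5.13% of collagen-rich cells. In members with a *Sox2* UMI, *Chgb* was at 191 and 191 CPM, and in those without at 800.0 and 499.6 CPM. *Peg10* was at 85 and 94.9 CPM with and 248 and 149.6 CPM without, and *Rxrg* at 73.5 and 101 CPM with and 164 and 146 CPM without. These genes were thus lower where *Sox2* was detected, in both libraries.
A *Rxrg* UMI was found in 24.3% (18.2–31.3) of male members with a *Sox2* UMI and 52% (46.4–57.5) of those without. Among females these shares were 28.3% (19.4–38.6) and 39.8% (31.5–48.7), whose intervals overlap. The highest Scrublet scores fell on 21.5% and 14.1% of the members with a *Sox2* UMI and on 4.62% and 3.01% of those without, and the part of doublets was not tested.
A *Lef1* UMI was found after thinning in 21.1% (17.6–25) and 23.6% (18.2–29.7) of the members. Males with one had a *Smoc2* UMI in 27.4% (19.1–36.9) and males without in 6.06% (3.92–8.88), and females in 17% (8.07–29.8) and 6.40% (3.24–11.2), where the intervals overlap. *Hes6* was at 623 and 359.8 CPM with and 333 and 225 CPM without a *Lef1* UMI. *Rxrg* was at 86.5 (73.3–101) and 126 (100.2–157) CPM with and 138 (129–148) and 126 (112–142) CPM without, and so differed in males alone. Members with *Lef1* thus held more *Hes6*, which was high in *Smoc2*/*Pou3f4* cells, in both libraries.

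After thinning, few members carried UMIs of several cell cycle genes, which is no measure of the share that divides. By uptake of EdU, a label of DNA synthesis, the paper counted POU1F1-positive progenitors without hormone among its most proliferative cells. Those counts were of cells in whole glands at later postnatal days. UMIs of at least 2 of 8 proliferation markers were found after thinning in 41 of 502 male members (8.17%, 5.92–10.9) and 6 of 225 female members (2.67%, 0.985–5.71), and without thinning in 16.6% and 11.4%. *Smoc2*/*Pou3f4* cells had 4.94% and 5.15%, hormone-rich cells 15.2% and 16.7%, and all barcodes kept 15.4% and 13.5%. The share in the members was below that of all barcodes kept in both libraries. Free RNA of these genes was not subtracted.
The 41 male members with these markers had 344 CPM of *Sox2* and 558 CPM of *Pou1f1*, and the other male members 137 CPM and 1066 CPM. Their median of 23856 UMIs was above the 13213 of the others, and 24.4% of them were among the highest Scrublet scores.

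**Figure D5:**
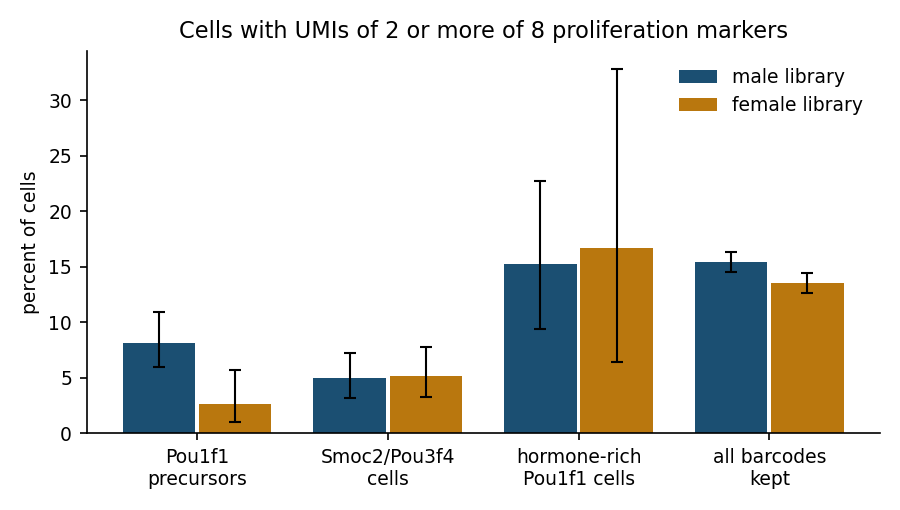
Percent of cells (vertical axis, from 0) with UMIs of 2 or more of 8 proliferation markers after thinning to 5000 UMIs, in 4 classes of the male (blue) and female library (orange), with exact Clopper-Pearson 95% intervals. The *Pou1f1* precursors, at 8.17% and 2.67%, are below all barcodes kept, at 15.4% and 13.5%, in both libraries.

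Between male and female members, 3308 genes were measured, of which 15 were higher in males (0.453%) and 7 in females (0.212%). Sex-linked, ribosomal and mitochondrial genes aside, the 5 with the largest male ratio were *Ube2c*, *Top2a*, *Hist1h2ap*, *Cenpf* and *Gstp1*. The first 4 are genes of the dividing cell, of which *Top2a*, a DNA topoisomerase, had 56.3 (51.2–61.7) and 13.7 (9.81–18.5) CPM. *Gstp1*, a glutathione transferase, was at 119 and 36.7 CPM, and at 98.3 and 28.4 CPM in *Smoc2*/*Pou3f4* cells, so that it differed between the libraries in both classes.
The 5 with the largest female ratio were *Cebpd*, *AY036118*, *Micalcl*, *Csnk2a1* and *Hes1*. *Cebpd*, a C/EBP family factor, had 34.3 (30.4–38.6) and 103 (91.5–115) CPM in the members and 5.03 and 2.21 CPM in *Smoc2*/*Pou3f4* cells. *AY036118* and *Csnk2a1* were also higher in female *Smoc2*/*Pou3f4* cells, *AY036118* at 31.3 and 82.5 CPM and *Csnk2a1* at 68.5 and 135 CPM. Among the markers, *Neurod4* differed by 1.51-fold (1.33–1.72) towards females and *Peg10* by 1.44-fold (1.28–1.62) towards males. *Rxrg* was at the same level in both libraries within counting error.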

How the data were processed

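The authors deposited, for each library, a matrix of UMI counts per gene and barcode that Cell Ranger made on mm10 with an eGFP sequence added. The submitters' processing notes also name R 3.6.0 and Seurat 3 and 4, with no role stated. Barcodes with at least 1000 genes and at most 10% mitochondrial UMIs were kept. Counts were summed over the cells of a class within a library and scaled to CPM, and class ratios are of these sums. A ratio was counted at 2-fold or more in both libraries, among genes with 50 CPM in a class in each library and 100 UMIs in all. Intervals are exact at 95% (Poisson for levels, conditional Poisson for ratios, Clopper-Pearson for shares), and they cover counting error only. Shares of cells with a UMI were computed after thinning each cell to 5000 UMIs, which left 502 of 536 and 225 of 229 members. Scrublet, run in scanpy 1.11.5, marked in each library the top 0.8% of barcodes per 1000 kept. With 1 library a sex no test between conditions was possible. The members, the 25 gene lists (346 of 347 genes matched) and the comparisons were chosen with earlier results of these data known. Named genes are those of the rule, the markers, in each list those with the largest and smallest lesser ratio over the libraries, and the 10 genes each way (5 between the sexes) with the largest lesser ratio. Neurod1, Trhr, Sox9 and genes named as not passing were chosen after their values were seen. Some genes that the rule names are not reported here. Gene positions are from GENCODE on mm10. Python 3.11.15, numpy 2.4.6, scipy 1.17.1, pandas 2.3.3 and matplotlib 3.10.9 were used, and the ratio and interval code was tested on simulated data. Alternatives changed the cell filters, the rule's limits, doublet removal, the level filter, the averaging and the totals, and their effect is in the closing section.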

Additional observations from a re-analysis of the deposited data

Results flagged for a closer look

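For 6 genes the members were higher than a comparison class by 2-fold or more in 1 library and lower by 2-fold or more in the other, each beyond counting error. These differences between the libraries were not tested. *Mki67*, a proliferation marker, had a ratio of members over Smoc2/Pou3f4 cells of 3.12 (2.49–3.93) in males and 0.274 (0.160–0.444) in females. *Top2a* had 2.44 (2.05–2.91) and 0.406 (0.283–0.571), and *Bub1*, a spindle checkpoint kinase, had 2.80 (1.49–5.59) and 0.218 (0.0245–0.910). *Pcsk2*, a prohormone convertase, had 0.148 (0.0864–0.241) and 19.6 (2.79–851), and *Tshb*, the thyrotropin beta subunit, had 0.258 (0.208–0.317) and 26.5 (11.6–74.2), again over Smoc2/Pou3f4 cells. After thinning, 0 of 408 female Smoc2/Pou3f4 cells had a *Pcsk2* UMI. The rule for Smoc2/Pou3f4 cells sets no limit on *Cga* or *Pomc*, whereas that for the members does. The cell cycle inhibitor gene *Cdkn1a* had 2.10 (1.42–3.19) and 0.217 (0.136–0.346) over hormone-rich cells. Over Gh-rich cells alone it had 1.37 (0.910–2.13) and 0.186 (0.116–0.297), so the male difference was then within counting error. The 64 male cells that were Prl-rich alone held 3 *Cdkn1a* UMIs, and the 6 female ones held 0.

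Outside the barcodes kept, 24 male barcodes with fewer than 1000 genes had 2 or more *Pou1f1* UMIs. They entered no comparison.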

How the results depend on the processing

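The male share of 6.69% was 7.35% with a minimum of 2000 genes, 6.12% with 3 *Pou1f1* UMIs, 7.92% without the *Cga* limit and 7.40% among barcodes with 5000 UMIs. The female share of 4.09% was 3.54% with at most 5% mitochondrial UMIs and 3.47% when the rule followed thinning. Their ratio was 1.59–1.91 under all 8 alternatives. With a 20 CPM filter, 306 genes were higher and 174 lower than in Smoc2/Pou3f4 cells, 91 and 121 against hormone-rich cells, and 48 and 15 were higher in male and female members, with 6245 to 6500 genes then measured. Chosen after seeing the data, totals without hormone genes gave 18 higher and 85 lower against hormone-rich cells, and Gh-rich cells alone as the comparison gave 71 higher, 24 of them shared with the 30, with male *Chgb* at a log2 ratio of 0.39 in place of -1.89. Prl-rich cells alone were not used as a comparison, because the females held 6. Also chosen after seeing the data, Smoc2/Pou3f4 cells under the members' *Cga*, *Pomc* and collagen limits gave 147 higher and 96 lower genes. Of the 128 and 96 reported, 126 and 87 were shared. With those limits off and the highest Scrublet scores removed, 157 were higher and 108 lower, with 125 of the 128 and 95 of the 96 shared. The proliferating share without the highest Scrublet scores was 6.90% and 1.44%. That share was 16.6% and 11.4% without thinning and 5.18% and 0.889% when a *Mki67* UMI was required. Of 1772 values of single genes under an alternative, 137 moved beyond 0.5 log2 units or the counting interval, and male *Chgb* was the 1 that changed direction among genes counted as higher or lower. No paired analysis was possible because each sex had 1 library. The female hormone-rich class held 37 cells, which widens its counting intervals.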
